A study of Oryza sativa with 4 samples.

Results

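The 7 genes described here encode the MCM2 to MCM7 proteins and PCNA (proliferating cell nuclear antigen). They were taken by locus identifier from a table of 45027 rice loci, and all 7 were present and counted deeply enough to be tested. MCM2 to MCM7 form a ring-shaped complex that is the core of the replicative DNA helicase. The origin recognition complex (ORC), with CDC6 and CDT1, loads this ring onto origins before S phase, a step called licensing. PCNA is the sliding clamp that holds DNA polymerases on the template and is itself loaded by replication factor C. In plants these transcripts are abundant in dividing tissue such as meristems and young organs, and promoters of many of them are known targets of E2F factors, which retinoblastoma-related proteins hold in check.

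RNA was sequenced from young rice panicles of 0.3 to 1.5 cm (stage In7) of the cultivar Dongjin, raised under glass with 30°C days and 25°C nights. Wild-type (WT) plants were set against plants with the emf2b-1 allele. EMF2B belongs to Polycomb repressive complex 2, the enzyme complex behind the repressive histone mark H3K27me3. Each genotype had 2 libraries, named here by the barcodes of the columns, GAGT and TTAG for emf2b and ACCC and CGTA for WT; where a pair of values is given for a genotype, it follows that order. The labels do not say whether the 2 libraries of a genotype came from separate plants, so p-values measure only the spread between these libraries, which may be technical.

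The emf2b libraries held 12932305 (GAGT) and 16926873 (TTAG) counted reads, and the WT libraries 25382519 (ACCC) and 32087683 (CGTA). The locus known as EMF2B (LOC_Os09g13630, chromosome 9) stood at 9.90 and 11.9 CPM (counts-per-million of the library total) in emf2b against 37.1 and 38.8 CPM in WT, so its transcript was low in both libraries labelled emf2b. Over the 22615 tested loci, 15.7% were called different between the genotypes (edgeR quasi-likelihood test, p adjusted by Benjamini-Hochberg under 0.05), 13.5% as higher and 2.21% as lower in emf2b. Panicle markers were read from a list of 5 genes. OSH1, a homeobox gene of shoot meristems, was at 25.1 to 29.4 CPM in all libraries. RFL, a LEAFY-like gene of inflorescence meristems, had 40.4 and 68.2 CPM in emf2b beside 37.9 and 26.2 CPM in WT. Its log2 fold change was 0.72 (edgeR adjusted p = 0.155). Of the other 3, 1 was near 0 (0 to 0.232 CPM) and too low to test. The remaining pair, named after their values were seen, went opposite ways. MADS1, a floret meristem gene, fell (log2 fold change -1.88, edgeR adjusted p = 0.00909), a call lost without either WT library. MADS34, an inflorescence and spikelet gene, had 39.3 and 20.3 CPM in emf2b beside 14.7 and 11.6 CPM in WT (log2 fold change 1.146, edgeR adjusted p = 0.0644). Of this list, DESeq2 called 1 gene higher and 1 lower. In bulk tissue, fewer cells of a type and less RNA per cell cannot be told apart.

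None of the 7 genes was called in emf2b. By the edgeR test 0 were higher and 0 lower, 0 had an unadjusted p under 0.05 (28.6% of tested loci did), and DESeq2 also called 0 (it called 10.3% of tested loci higher and 2.47% lower). The adjusted p-values ran from 0.559 (MCM6) to 0.999 (MCM3). Their log2 fold changes lay between -0.24 (MCM2) and 0.26 (MCM6), with a median of -0.14 beside 0.01 over all tested loci. Of the 7, 5 were negative and 2 positive. The libraries of the genotypes overlapped in CPM for all 7 genes, whereas over all tested loci 24.6% had both emf2b libraries below both WT libraries and 32.5% had both above. The absence of a call came with a wide spread between the emf2b libraries, described next, so it does not show that the levels were equal.

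The 2 emf2b libraries stood at opposite ends. TTAG had the highest level of the 4 libraries for all 7 genes, and GAGT the lowest for 6 of the 7, the exception being MCM6. GAGT was below both WT libraries for the same 6 genes (39.1% of tested loci). Over all tested loci TTAG was highest for 32.1% and GAGT lowest for 29.9%, and both held together for 6.85%. The WT libraries lay between them for those 6 genes.

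**Figure D1:**
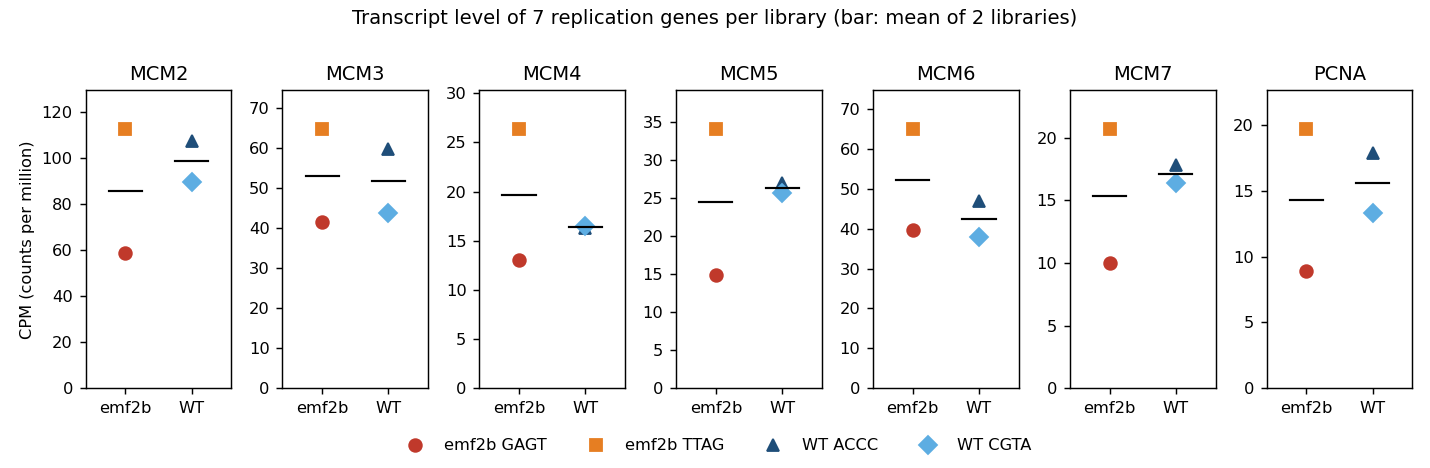
Transcript level in CPM (vertical axes, each from 0) of the 7 genes in each library; points are libraries and bars the mean of the 2 libraries of a genotype. In every panel emf2b TTAG is the highest point, and emf2b GAGT the lowest in all but that of MCM6.

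MCM2 (LOC_Os11g29380, chromosome 11), a subunit whose N-terminal tail also binds histones in yeast and animals, had 58.8 CPM in GAGT, 112 CPM in TTAG, 108 CPM in ACCC and 89.5 CPM in CGTA. This made a mean of 85.7 ± 37.9 CPM for emf2b beside 98.5 ± 12.7 CPM for WT (SD, n = 2 each). The fitted log2 fold change was -0.24 ± 0.29 (SE; 95% interval -0.92 to 0.44, edgeR adjusted p = 0.640), an interval that reaches from lower to higher expression in emf2b.

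MCM3 (LOC_Os05g39850, chromosome 5), which pairs with MCM5 in the ring, had 41.6 CPM in GAGT, 64.8 CPM in TTAG, 59.9 CPM in ACCC and 43.7 CPM in CGTA. Here GAGT and CGTA were close, and the means of 53.2 ± 16.4 CPM for emf2b and 51.8 ± 11.4 CPM for WT (SD, n = 2 each) gave a log2 fold change near 0 (95% interval -0.61 to 0.61, edgeR adjusted p = 0.999), whose sign changed with the scaling of the libraries. MCM5 (LOC_Os02g55410, chromosome 2), which together with MCM2 forms the gate through which the ring opens onto DNA in yeast, had 14.9 CPM in GAGT, 34.1 CPM in TTAG, 27.0 CPM in ACCC and 25.6 CPM in CGTA. Its WT libraries differed little (26.3 ± 0.97 CPM, SD, n = 2), while its emf2b libraries differed more than those of any other of the 7 genes as a ratio. The log2 fold change was -0.14 ± 0.35 (SE; edgeR adjusted p = 0.836).

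MCM4, MCM6 and MCM7 form the part of the ring that has helicase activity by itself in biochemical work on yeast and animal proteins. MCM4 (LOC_Os01g36390, chromosome 1) had 12.99 CPM in GAGT, 26.3 CPM in TTAG, 16.3 CPM in ACCC and 16.5 CPM in CGTA. The WT pair was nearly equal (16.4 ± 0.20 CPM, SD, n = 2), and the emf2b libraries lay on either side of it. MCM6 (LOC_Os05g14590, chromosome 5) had 39.7 CPM in GAGT, 64.9 CPM in TTAG, 46.8 CPM in ACCC and 37.9 CPM in CGTA, so GAGT was within the WT range and TTAG above it. MCM4 and MCM6 were the 2 genes with positive log2 fold changes, 0.23 ± 0.32 and 0.26 ± 0.26 (SE; edgeR adjusted p = 0.698 and 0.559). Both signs turned negative when TTAG was left out (-0.34 and -0.10). MCM7 (LOC_Os12g37400, chromosome 12) had 9.98 CPM in GAGT, 20.7 CPM in TTAG, 17.8 CPM in ACCC and 16.4 CPM in CGTA. GAGT was below both WT libraries and TTAG above both, with a log2 fold change of -0.19 ± 0.33 (SE; edgeR adjusted p = 0.755).

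PCNA (LOC_Os02g56130, chromosome 2) showed the same order of libraries as MCM2, MCM3, MCM5 and MCM7, from TTAG through ACCC and CGTA down to GAGT. It had 8.89 CPM in GAGT, 19.7 CPM in TTAG, 17.9 CPM in ACCC and 13.3 CPM in CGTA, with means of 14.3 ± 7.62 CPM for emf2b and 15.6 ± 3.22 CPM for WT (SD, n = 2 each). The log2 fold change was -0.16 ± 0.37 (SE; 95% interval -1.02 to 0.70, edgeR adjusted p = 0.823), the widest interval of the 7. Levels are compared here between libraries of 1 gene and not between genes, because transcript lengths were not used.

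Added up, the 6 MCM genes gave the same mean in both genotypes to within the spread of the libraries. Their summed level was 178 CPM in GAGT and 323 CPM in TTAG, a mean of 251 ± 103 CPM, and 275 CPM in ACCC and 230 CPM in CGTA, a mean of 253 ± 32.3 CPM (SD, n = 2 each). PCNA amounted to 4.996% and 6.08% of that sum in GAGT and TTAG and to 6.49% and 5.81% in ACCC and CGTA.

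The difference between the emf2b libraries was large beside the counting error of single genes. The depth-adjusted ratio of GAGT to TTAG was 0.438 for MCM5 (95% exact interval 0.370 to 0.516), 0.452 for PCNA (0.362 to 0.560), 0.482 for MCM7 (0.391 to 0.592), 0.493 for MCM4 (0.410 to 0.590) and 0.523 for MCM2 (0.480 to 0.569). It was 0.611 for MCM6 (0.549 to 0.679) and 0.642 for MCM3 (0.578 to 0.712). These intervals cover counting error only. All 7 ratios were below 1, where 59.5% of tested loci had GAGT below TTAG, and their median of 0.493 stood beside 0.924 over all tested loci. This lean was not particular to the 7 genes. Of the 35 other replication genes described below, 31 also had GAGT below TTAG, with a median ratio of 0.733. In WT the ratio of ACCC to CGTA had a median of 1.2008 over the 7 genes, beside 0.978 over all tested loci, and exceeded 1 for 6 of the 7 genes (46.7% of tested loci). MCM3 had the largest WT ratio, 1.37, and MCM4 the smallest, 0.983.

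Each emf2b library set against the WT pair by itself therefore gave different signs. With TTAG left out, all 7 log2 fold changes were negative, from -0.82 (MCM5) to -0.10 (MCM6). With GAGT left out, all 7 were positive, from 0.09 (MCM2) to 0.58 (MCM4). No adjusted p passed in either fit (edgeR, lowest 0.100 and 0.173), while 8.34% of tested loci were called higher and 1.75% lower without TTAG, and 14.7% higher and 1.02% lower without GAGT. In these fits the lone emf2b library is assumed to vary like the WT pair.

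Other measures also differed between the emf2b libraries. The 4 green tissue markers summed to 24.8 CPM in GAGT and 61.6 CPM in TTAG, against 29.6 and 19.0 CPM in ACCC and CGTA. Most of that sum came from the chlorophyll a/b-binding protein genes CAB1R, at 15.7 and 46.2 CPM in emf2b and 22.2 and 7.76 CPM in WT, and CAB2R, at 4.48 and 13.1 CPM in emf2b and 4.06 and 7.35 CPM in WT. The other 2 green tissue markers were higher in GAGT than in TTAG. The 6 meiosis genes summed to 83.3 and 109 CPM in GAGT and TTAG and to 284 and 349 CPM in ACCC and CGTA. Of these 6, 4 fell by the edgeR test and 0 rose (2.21% of tested loci were called lower), among them ZEP1, of the synaptonemal complex, and PAIR2, of the chromosome axis (log2 fold changes -2.50 and -1.11, edgeR adjusted p = 0.00489 and 0.0193). The count was 3 with library totals alone, with the legacy dispersion method and after thinning reads to the smallest library total. It was 2 with either stricter count filter, and it also fell in the fits without GAGT, ACCC or CGTA. None of these markers was at 0 in any library. The 4 reference genes summed to 217 and 269 CPM in emf2b and to 400 and 395 CPM in WT. Most of each sum came from GAPDH. By edgeR 3 of the 4 did not pass, and 1 of those had a positive log2 fold change. Of the 4, GAPDH fell, from 311 and 316 CPM in WT to 152 and 180.5 CPM in emf2b (edgeR adjusted p = 0.0150), a call lost without ACCC, without CGTA and at a mean of 5 CPM. ACT1 stood at 27.6 and 41.9 CPM in the mutant libraries and 44.2 and 42.9 CPM in WT. The part of these differences, and of depth, in the levels of the licensing genes was not tested.

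**Figure D2:**
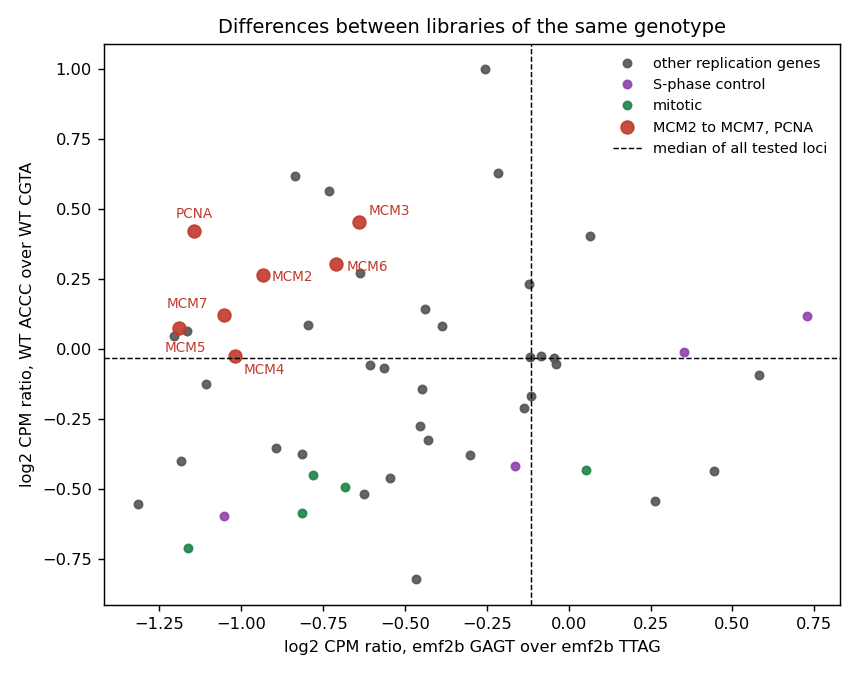
Ratio between libraries of the same genotype on a log2 scale, emf2b GAGT over TTAG (horizontal) against WT ACCC over CGTA (vertical), for MCM2 to MCM7 and PCNA and for the other lists; dashed lines mark the medians of all tested loci. The 7 licensing genes lie left of the vertical line and above the horizontal one, with MCM4 close to the horizontal line (ratios of 0.983 and 0.978), while the 5 mitotic genes lie below it.

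The composition of the MCM reads within a library does not depend on the scaling of libraries. MCM2 contributed 33.1% and 34.8% of the MCM2 to MCM7 reads in GAGT and TTAG, with 95% exact intervals of 31.1 to 35.0% and 33.5 to 36.1%. In ACCC and CGTA it contributed 39.0% in each (37.9 to 40.2% and 37.9 to 40.1%). MCM6 contributed 22.3% and 20.1% in GAGT and TTAG (20.6 to 24.0% and 19.0 to 21.2%) and 17.01% and 16.5% in ACCC and CGTA (16.1 to 17.9% and 15.6 to 17.4%). For both genes the emf2b and WT intervals were apart, but these intervals cover counting error only and not the spread between libraries. MCM4 contributed 7.30% and 8.15% in emf2b beside 5.91% and 7.20% in WT, and MCM7 5.60% and 6.40% beside 6.48% and 7.14%. For both the 4 shares did not overlap between the genotypes, but intervals of emf2b and WT libraries did. The shares of MCM3 (19.0 to 23.4%) and MCM5 (8.38 to 11.2%) overlapped.

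**Figure D3:**
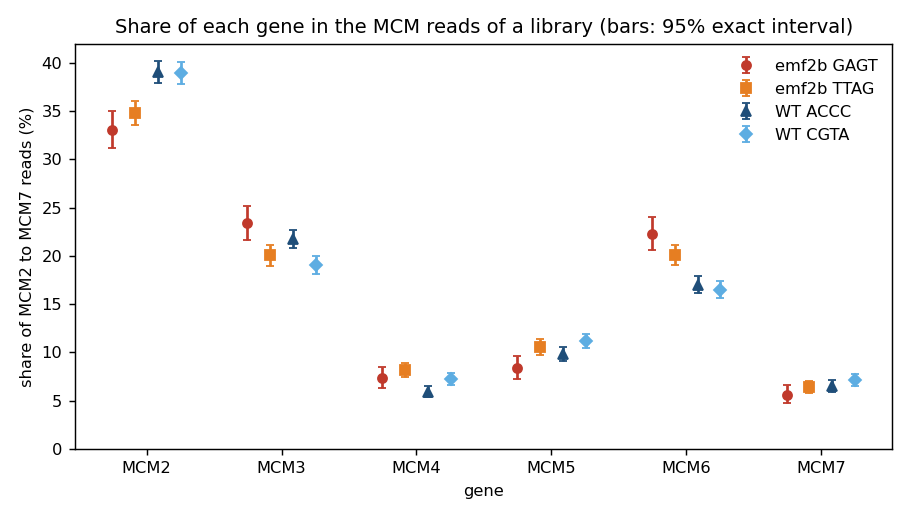
Share of each gene (horizontal axis) in the MCM2 to MCM7 reads of a library in percent (vertical axis), with 95% exact intervals for counting error. The WT libraries are highest for MCM2, near 39.0%, and the emf2b libraries highest for MCM6, at 20.1% and 22.3%.

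The ratio of MCM6 to MCM2 reads was 0.674 in GAGT (95% exact interval 0.602 to 0.755) and 0.577 in TTAG (0.535 to 0.622). It was 0.436 in ACCC (0.407 to 0.467) and 0.423 in CGTA (0.395 to 0.453). The mean difference was 0.54 on the log2 scale, and this pair was singled out after its values were seen as the largest of 21 pairs among the 7 genes. With 2 libraries a group an exact two-sided permutation test cannot go below p = 0.333, which is the value it gave here. Of the 21 within-library ratios 10 did not overlap between the genotypes, while this held for 58.7% of all pairs of tested loci with reads in all libraries, so the separation of such ratios was no more frequent among the 7 genes than across the table.

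The rest of the replication machinery was read from a list of 36 further genes, of which 35 were in the table and all 35 were tested. By edgeR 1 fell, 0 rose and 34 did not pass (8 lower and 0 higher at an unadjusted p under 0.05, beside 8.18% and 20.4% of tested loci); DESeq2 called 2 lower and 0 higher. The median log2 fold change was -0.28, and 29 of the 35 were negative. In 19 of them both emf2b libraries were below both WT libraries (24.6% of tested loci), an order found for 0 of the 7 licensing genes. The gene that fell was LOC_Os02g47150, listed under nucleotide supply and topology and not annotated by name in the reference table used. It had 359.95 and 485 CPM in GAGT and TTAG and 802 and 1005 CPM in ACCC and CGTA (log2 fold change -1.13 ± 0.23 SE, edgeR adjusted p = 0.0180). Leaving out ACCC or CGTA, or using either stricter count filter, took the call away.

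Genes that act before or beside the MCM ring gave the following values. ORC1, the largest subunit of the origin recognition complex, had 21.7 and 29.8 CPM in GAGT and TTAG and 34.3 and 41.4 CPM in ACCC and CGTA (log2 fold change -0.59 ± 0.22 SE, edgeR adjusted p = 0.121). The 7 origin recognition and loading genes had a median of -0.13. MCM9, an MCM-related protein that is not part of the licensing ring, had 53.7 and 66.2 CPM in emf2b beside 49.2 and 63.8 CPM in WT, and overlapped between genotypes. The 6 genes listed for helicase activation and other MCM proteins had a median of -0.79, with none past the test.

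At the fork itself, RPA1C, a large subunit of the single-strand binding protein RPA, had 63.6 and 73.9 CPM in the emf2b libraries and 149 and 96.4 CPM in ACCC and CGTA. Its log2 fold change was -0.88 ± 0.24 (SE; edgeR adjusted p = 0.0517), just short of the threshold. RPA1A, another large subunit, averaged 23.0 ± 0.43 CPM for emf2b and 31.7 ± 0.84 CPM for WT (SD, n = 2 each; edgeR adjusted p = 0.128), with emf2b libraries that hardly differed. Among the 5 clamp loader genes, which act on PCNA, RFC1 was at 106 and 115 CPM in GAGT and TTAG and 134 and 151 CPM in ACCC and CGTA (edgeR adjusted p = 0.165). RFC4 had 52.6 and 57.1 CPM in emf2b beside 62.6 and 63.8 CPM in WT (edgeR adjusted p = 0.407). The clamp loader genes had a median ratio of GAGT to TTAG of 0.923, against 0.452 for PCNA. That median was the highest among the roles of the replication list. The other roles had medians from 0.565 (helicase activation and other MCM proteins) to 0.861 (single-strand DNA binding). FEN1A, a flap endonuclease that trims Okazaki fragments, had 25.7 and 37.6 CPM in GAGT and TTAG and 37.7 and 51.95 CPM in ACCC and CGTA (edgeR adjusted p = 0.203). The 4 DNA polymerase genes had log2 fold changes from -0.61 to -0.15, with none past the test.

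Upstream regulators and mitotic genes were listed for comparison. Of the 4 genes of the E2F and retinoblastoma-related list, 0 rose and 0 fell by edgeR, and DESeq2 called 0. At an unadjusted edgeR p under 0.05 there were 0. Their log2 fold changes ran from -0.61 to 0.36, with 2 negative, 2 positive and a median of -0.21. The 2 negative values were those of RBR1 and RBR2, and the other 2 loci were not annotated by name. RBR1, a retinoblastoma-related gene, had 12.5 and 26.0 CPM in GAGT and TTAG, 23.0 CPM in ACCC and 34.7 CPM in CGTA. RBR2 had 65.96 and 73.97 CPM in emf2b beside 78.6 and 105 CPM in WT. Of the 4 genes, 2 were lower in GAGT than in TTAG, and the median ratio was 1.08.

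With all 4 libraries in the fit, 0 of the 5 mitotic genes rose and 0 fell by edgeR, and DESeq2 called 0. At an unadjusted edgeR p under 0.05, 3 were lower (8.18% of tested loci). All 5 had negative log2 fold changes, with a median of -0.76. The mitotic kinase genes CDKB1-1 and CDKB2-1 had -0.67 ± 0.25 and -0.76 ± 0.30, and the B-type cyclin genes CYCB1-1, CYCB2-1 and CYCB2-2 had -0.72 ± 0.35, -0.78 ± 0.29 and -0.88 ± 0.38 (SE). Both emf2b libraries were below both WT libraries for 4 of the 5 (24.6% of tested loci). The exception, by a narrow margin, was CYCB2-2 (42.4 CPM in TTAG, 41.8 CPM in ACCC). The median log2 fold change of the 5 was -1.16 with TTAG left out and -0.51 with GAGT left out. The absence of calls among the mitotic genes did not hold in every fit with 1 library left out. Of the 5, 4 were lower in GAGT than in TTAG (59.5% of tested loci), with a median ratio of 0.582 beside 0.924 over all tested loci. In WT, 0 of the 5 were higher in ACCC than in CGTA (46.7% of tested loci). The summed level of the 7 licensing genes over that of the 5 mitotic genes was 3.41 in GAGT, 3.59 in TTAG, 2.85 in ACCC and 1.59 in CGTA. Both emf2b values were above both WT values, as ratios of single loci were apart between the genotypes for 58.7% of all pairs, and the WT libraries differed more from each other than the emf2b libraries did. This ratio is given as a description.

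**Figure D4:**
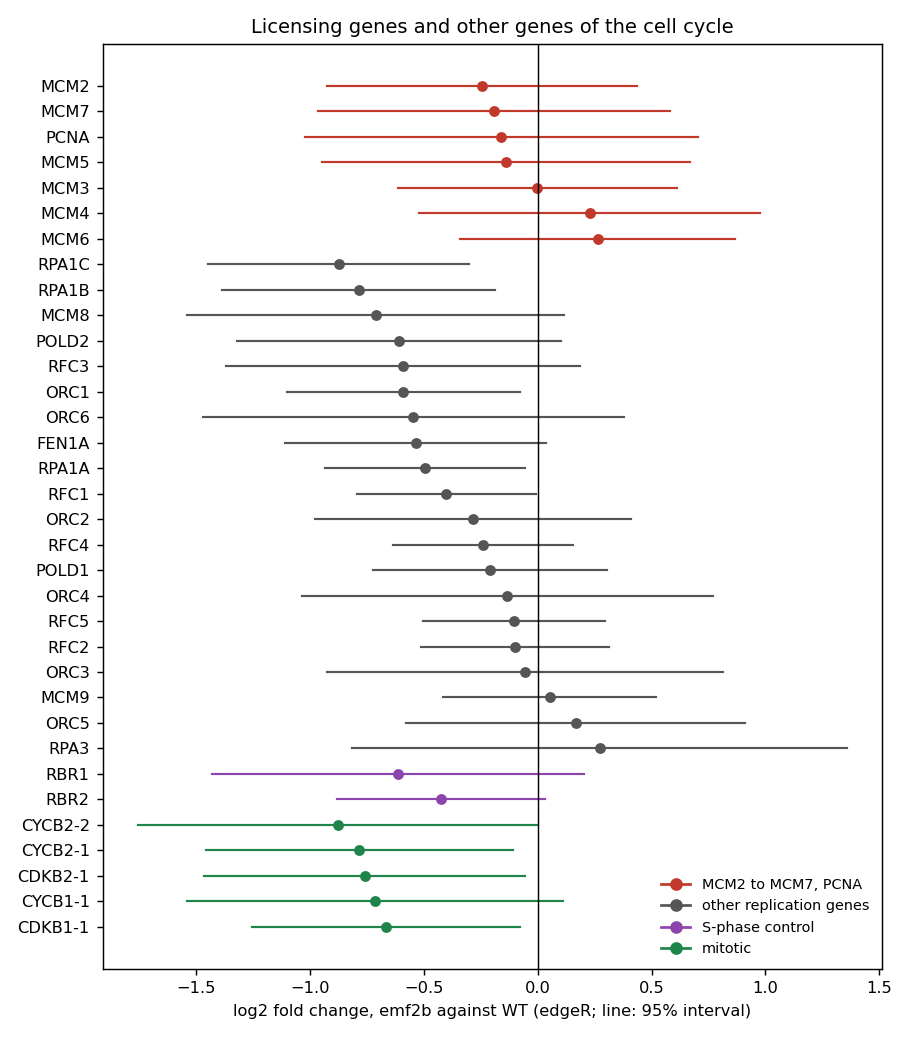
Fitted log2 fold change of emf2b against WT (horizontal axis; points) with its 95% interval, not adjusted for the number of genes (lines), for MCM2 to MCM7 and PCNA, and for those genes of the other lists that the reference table annotates by name (vertical axis). The intervals of the 7 licensing genes include 0, and the 5 mitotic genes have points from -0.88 to -0.67. The intervals of CYCB1-1 and CYCB2-2 also include 0, and those of CDKB1-1, CDKB2-1 and CYCB2-1 lie below it.

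Among the genes of the replication, regulator and mitotic lists, those whose pattern over the 4 libraries was nearest to the mean pattern of the 7 genes were 2 origin recognition genes and a locus not annotated by name. The distance between centred log2 CPM values was 0.19 for ORC4 and 0.28 for ORC3, and the 7 genes themselves lay 0.20 (MCM2) to 0.38 (MCM6) from their own mean. ORC4 had 2.55 and 4.43 CPM in emf2b beside 3.90 and 3.68 CPM in WT, and ORC3 had 4.48 and 7.44 CPM beside 7.29 and 4.92 CPM, both with TTAG highest and GAGT lowest. This likeness rests on 4 libraries and is a description.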

How the data were processed

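The deposited values for each gene model were taken as raw read counts, which was assumed from the name of the deposit. Submitters' processing notes list TopHat2 2.0.5 and DESeq 1.10.1; no counter, build, annotation or strand setting is given in the sources used here, so reads of overlapping or near-identical genes may be mixed. Per the labels' protocols, amplified cDNA was sequenced with single reads, and that text mentions wild-type tissue for every sample. Groups follow titles and genotype labels, and each column was tied to a genotype only.

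After filterByExpr (edgeR 4.0.16, R 4.3.3; count 10, total 15) and TMM scaling (factors 0.973 to 1.03), genotype was tested two-sided with edgeR's quasi-likelihood test on 2 residual degrees of freedom. P-values were adjusted by Benjamini-Hochberg across 22615 loci. Signs of log2 fold changes are emf2b relative to WT, and SE is their size over the square root of F. CPM divides by the library total. The fit was checked on simulated counts, and DESeq2 1.42.0 served as an alternative tool beside other scalings, filters and left-out libraries.

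The genes and lists were chosen with earlier results of these data known. Values are given for the 7 genes, EMF2B, called genes of the replication list, up to 2 of the best-counted uncalled genes per role, the regulator and mitotic lists, and the 2 best-counted genes of the other lists, to which MADS1 and MADS34 were added after their values were seen. Of 72 listed names, 49, with all 7 licensing genes, occur in a RefSeq gene table (ASM3414082v1) on the chromosome of the locus identifier and in an order that does not contradict it. Remaining loci are counted without a name, apart from EMF2B, named from general knowledge. FEN1B, promoter motifs and sequences were not analysed here.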

Additional observations from a re-analysis of the deposited data

How the results depend on the processing

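No licensing gene was called under any of the 13 alternatives, one of which (the legacy dispersion method) was chosen after seeing the data. Some alternatives called few loci of any kind, 5.55% at a minimum count of 50 and 1.53% at a mean of 5 CPM. Fits without a WT library called a smaller share still. In these settings 0 of 7 says little. Signs were less stable. With 1 library left out, log2 fold changes ran from -0.75 to 0.091 for MCM2, -0.32 to 0.23 for MCM3, -0.34 to 0.58 for MCM4, -0.82 to 0.27 for MCM5, -0.10 to 0.52 for MCM6, -0.78 to 0.17 for MCM7 and -0.81 to 0.23 for PCNA, and their median from -0.75 to 0.23. MCM3, at -0.0014 in the reported fit, was at 0.0016 with RLE factors, 0.046 with library totals alone, 0.023 after thinning, 0.089 at a minimum count of 50 and 0.11 at a mean of 5 CPM. With no low-count filter the median of all loci tested in the reported fit moved from 0.01 to -0.12, and that of the 7 genes from -0.14 to -0.27. Over all loci, 3057 were called higher and 499 lower; these were 808 and 115 at a minimum count of 50, 183 and 27 at a mean of 5 CPM, and 319 lower after thinning, with 16 to 3673 higher and 4 to 401 lower when 1 library was left out (fewest without WT CGTA). Of the other replication genes, 2 were called lower with RLE factors, no filter, DESeq2 and robust dispersions, 0 with either stricter filter, and 0 to 2 with 1 library left out. The causes were not tested. No paired analysis was possible because the columns carry no replicate number. With 2 libraries a genotype, changes within the intervals given cannot be shown.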
